A study of Mus musculus with 12 samples.

Results

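The comparison described here set mandibular fibrochondrocytes without NG2/CSPG4 against wild type fibrochondrocytes in the libraries whose titles name the Opti medium. Members were chosen by title alone, which gave 6 of the 12 RNA-seq libraries of the series, 3 knockout and 3 wild type. Fibrochondrocytes are the fibroblast-like cartilage cells of the mandibular condyle, the jaw side of the temporomandibular joint. They were taken from pups of 10 to 14 days. The labels give passage 4, whereas the paper's methods have all cells used before passage 3. Wild type cells came from C57BL/6J mice. Knockout cells came from mice with a knockout-first allele of Cspg4 from the KOMP repository, turned into a reporter-tagged deletion by a Cre-expressing line and backcrossed to C57BL/6J, so the deletion was constitutive rather than limited to cartilage. The Opti medium was Optimem without serum, with L-glutamine, penicillin and Plasmocin, an antimycoplasma reagent. The Norm medium of the other 6 libraries was AMEM with heat-inactivated fetal bovine serum and the same additions, so the basal medium changed together with the serum. The study asked how the loss of NG2/CSPG4 changes gene expression in fibrochondrocytes that are starved of serum, where it followed their migration.

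The labels of the knockout libraries contradict themselves. For the 3 knockout libraries titled Opti the treatment entry names the Norm medium, for the 3 knockout libraries titled Norm it names Optimem, and for the 6 wild type libraries title and entry match. Which 3 knockout libraries were grown without serum therefore cannot be told apart from the labels. The groups below follow the titles, and beside each gene group the values are also given for the other reading, which sets the knockout libraries titled Norm against the same 3 wild type libraries. The paper calls the 3 replicates of a group biological replicates. Whether they were separate mice or separate cultures is not given in the labels. The tests reflect only how far these libraries vary, which may be technical variation.

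NG2, encoded by Cspg4, is a single-pass membrane proteoglycan that carries chondroitin sulfate on a long ectodomain. It binds collagen VI, presents PDGF-AA and FGF2 to their receptors and works with beta-1 integrin at the cell surface, and it is best known from pericytes and oligodendrocyte precursors as well as from cartilage. Cultured cells that lose serum leave the cell cycle, dismantle actin stress fibres and adjust sterol synthesis to the lipid that the medium supplies. They also lower the transcripts driven by serum response factor (SRF), a transcription factor whose activity rises with actin polymerization.

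Of 31075 genes in the table, 19118 passed the filter on low counts and were tested. Differences are given as log2 fold change ± SE, knockout over wild type, from edgeR's quasi-likelihood test with Benjamini-Hochberg adjusted p-values, two-sided, and a gene was called where the adjusted p was under 0.05. Levels are CPM, the counts relative to library size after TMM scaling, written in the order of replicates 1, 2 and 3, with n = 3 in each group. The 6 libraries held 62343924 to 71448484 counts. The mitochondrially encoded genes stood apart in 1 library: their summed level was 51730 CPM in knockout replicate 1, 19730 and 26560 CPM in the other two knockout libraries and 12250 to 14640 CPM in wild type, and all 13 were called higher. Without that library 9 of the 13 were called, with the Y-linked level as a covariate 2, and under the other reading 1. The Y-linked genes and Xist were both detected in each of the 6 libraries, so each mixed cells of both sexes. Kdm5d and Eif2s3y, 2 of the 4 Y-linked genes, were called higher in knockout (0.71 ± 0.14 and 0.57 ± 0.19). The call of Eif2s3y was lost without wild type replicates 1 or 2 or knockout replicates 1 or 3 (adjusted p 0.077 to 0.19) and with the replicate block (0.063). With the Y-linked level as a covariate 3900 genes were called in place of 5395. The fibroblast and chondrocyte markers Col1a1, Col1a2, Prrx1, Runx2 and Sox9 were present throughout, but their list did not stay level. Of its 15 markers 8 were called lower and 4 higher (80%, against 28.2% of all tested genes), with a median log2 fold change of -0.49. They summed to 99640 to 112600 CPM in wild type and 37390 to 53320 CPM in knockout. Under the other reading 4 were lower and 5 higher. The 18 myeloid markers were not absent: they summed to 762 to 1332 CPM in wild type and 233 to 262 CPM in knockout, 16 were called lower and none higher, with a median log2 fold change of -2.01. In bulk RNA, fewer cells of a type and less RNA per cell cannot be told apart.

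**Figure D1:**
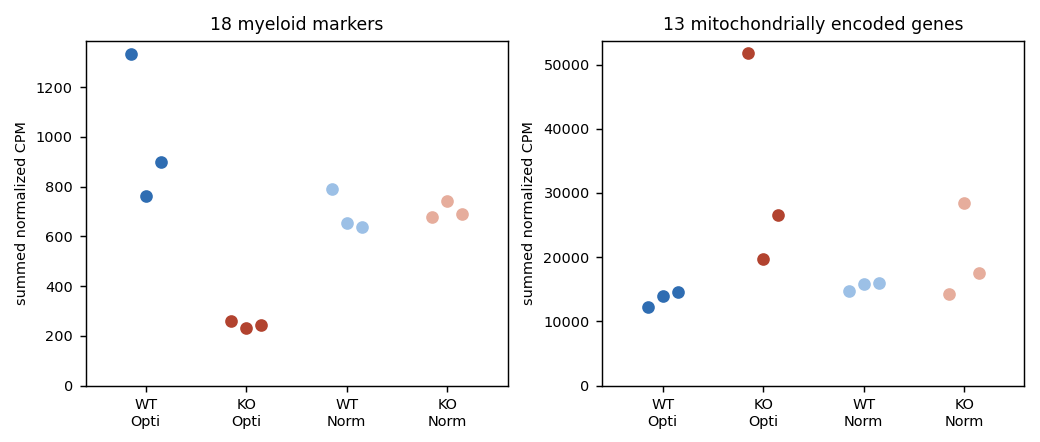
Summed normalized CPM of the 18 myeloid markers (left) and the 13 mitochondrially encoded genes (right) in each of the 12 libraries, 3 points a group. The 3 knockout libraries titled Opti lie between 233 and 262 CPM for the myeloid markers, below every other library, and knockout replicate 1 reaches 51730 CPM for the mitochondrial genes.

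Cspg4 itself was far lower in the knockout. It read 147, 158 and 114 CPM in wild type and 12.4, 10.5 and 13 CPM in knockout, a log2 fold change of -3.55 ± 0.18 (adjusted p = 9.1e-08). The groups did not overlap, and the exact permutation test over the 3 against 3 libraries gave p = 0.10, the smallest that this number of libraries allows. In the libraries titled Norm the difference was -3.92 ± 0.18, and the difference between media was not called (adjusted p = 0.24). The low level was thus found in all 6 knockout libraries under either reading of their labels. The gene totals do not show which exons the remaining reads came from.

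The comparison called 5395 of the 19118 tested genes (28.2%), 2539 of them higher in knockout (13.3%) and 2856 lower (14.9%). Among these, 1025 were at least 2-fold higher (5.36%) and 1099 at least 2-fold lower (5.75%), 11.1% together. The 3 knockout libraries lay above the 3 wild type libraries for 23% of the tested genes and below them for 24.4%. Higher genes made up 47.1% of the calls here and 57.2% when limma was fitted to log2(FPKM + 0.1). Without knockout replicate 1, the library with the high mitochondrial share, 4199 genes were called. The other reading called 4514 genes (23.6%), 2405 higher (12.6%) and 2109 lower (11%).

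**Figure D2:**
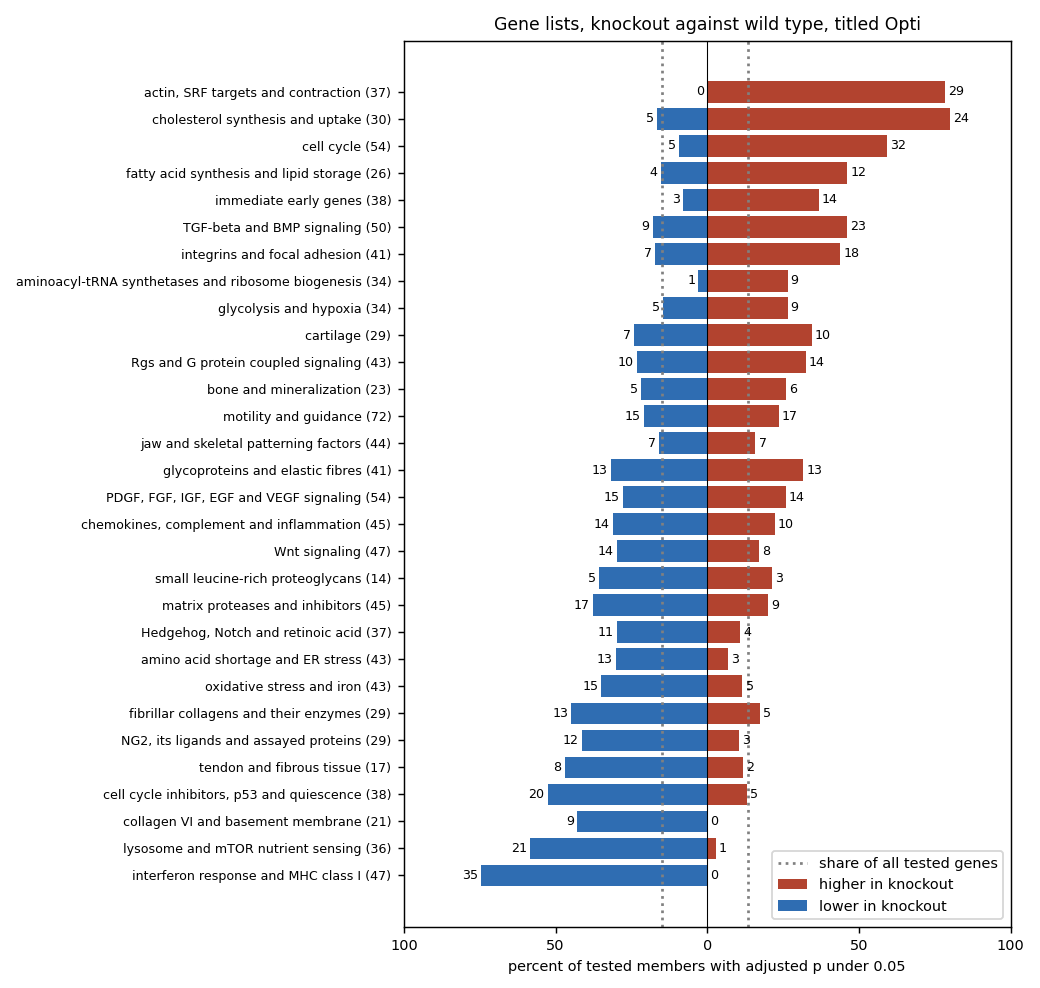
Percent of the tested members of 30 gene lists that were called higher (red, right) or lower (blue, left) in knockout against wild type in the libraries titled Opti, with the number of genes at each bar end and of tested members in parentheses. Dotted lines mark the share of all tested genes, 13.3% higher and 14.9% lower, and the actin, cholesterol and cell cycle lists reach farthest to the right while interferon, lysosome and cell cycle inhibitor lists reach farthest to the left.

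Ccn2 had the largest increase among the 15 genes that rose most. Ccn2 (connective tissue growth factor) read 29.1, 15.1 and 15.6 CPM in wild type and 502, 514 and 576 CPM in knockout, a log2 fold change of 4.73 ± 0.25 (adjusted p = 9.5e-08). Its relative Ccn1 (CYR61) went from 75.3, 53.4 and 56.3 to 539, 515 and 543 CPM (3.11 ± 0.15). Both are secreted proteins induced by SRF and YAP. Every knockout library lay above every wild type library for both, which the choice of the 15 required. Acan, the aggrecan core protein of cartilage, rose from 2.41, 1.48 and 1.19 to 18.3, 25.7 and 27.7 CPM (3.81 ± 0.32), and Tnfrsf11b, the RANKL decoy osteoprotegerin, from 5.51, 4.82 and 5.99 to 41.6, 50 and 43.1 CPM (3.04 ± 0.15). The R-spondin receptor Lgr6 rose by 3.86 ± 0.22, the BMP target Id3 by 3.55 ± 0.21, the water channel Aqp5 by 3.39 ± 0.15 and Dio3, which inactivates thyroid hormone, by 3.13 ± 0.18. Others of the 15 were Palmd, Gprc5a, B4galnt2, Idi1 and the unnamed loci Gm17501 and Gm48529, with log2 fold changes of 2.93 ± 0.19 to 3.08 ± 0.21. Gm17501 begins next to the start of Ccn1 on the opposite strand, and the 2 moved together. Palmd rested on the title: under the other reading it gave -0.05 ± 0.33. B4galnt2 was called here (SE 0.56) but not with the Y-linked covariate (1.16, adjusted p = 0.46) or under the other reading (1.18 ± 0.53, adjusted p = 0.14).

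Cpz had the largest decrease among the 15 genes that fell most. Cpz, a carboxypeptidase that cleaves Wnt, read 88.9, 113 and 102 CPM in wild type and 1.27, 1.72 and 2.81 CPM in knockout, a log2 fold change of -5.71 ± 0.29 (adjusted p = 9.1e-08). Dpt (dermatopontin, a collagen-binding matrix protein) went from 16.5, 19 and 20.7 to 0.952, 0.228 and 0.693 CPM (-4.91 ± 0.36) and Col15a1, a collagen of the basement membrane zone, from 34.6, 26.2 and 23 to 3.07, 3.87 and 2.97 CPM (-3.08 ± 0.21). All 3 knockout libraries were below all 3 wild type libraries for each of these, which the choice of the 15 required. Crabp1, the cytosolic retinoic acid binding protein, fell by 4.33 on the log2 scale (SE 0.23), beside -0.58 ± 0.19 under the other reading. Txnip, a thioredoxin inhibitor that curbs glucose uptake, went from 165, 149 and 141 to 13, 14.4 and 16.1 CPM (-3.39 ± 0.17), a change that rested on the title: the other reading gave -0.12 ± 0.15 (adjusted p = 0.63). Apod (-3.37 ± 0.24), Serpina3n (-3.14 ± 0.14), Lgi2 (-3.31 ± 0.17), the growth factor Mdk (-3.54 ± 0.30) and the vacuolar proton pump subunit Atp6v0d2 (-3.81 ± 0.28) were also among the 15, as were Fcgr2b (-3.03 ± 0.27) and Fcrls (-2.97 ± 0.41), 2 receptors of myeloid cells that moved with the myeloid markers. The remaining members were Cspg4 and the neighbouring loci Gm27177 (-4.13 ± 0.25) and Gm16867 (-3.80 ± 0.28), which lie beside the near-identical copies Entpd4 and Entpd4b.

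**Figure D3:**
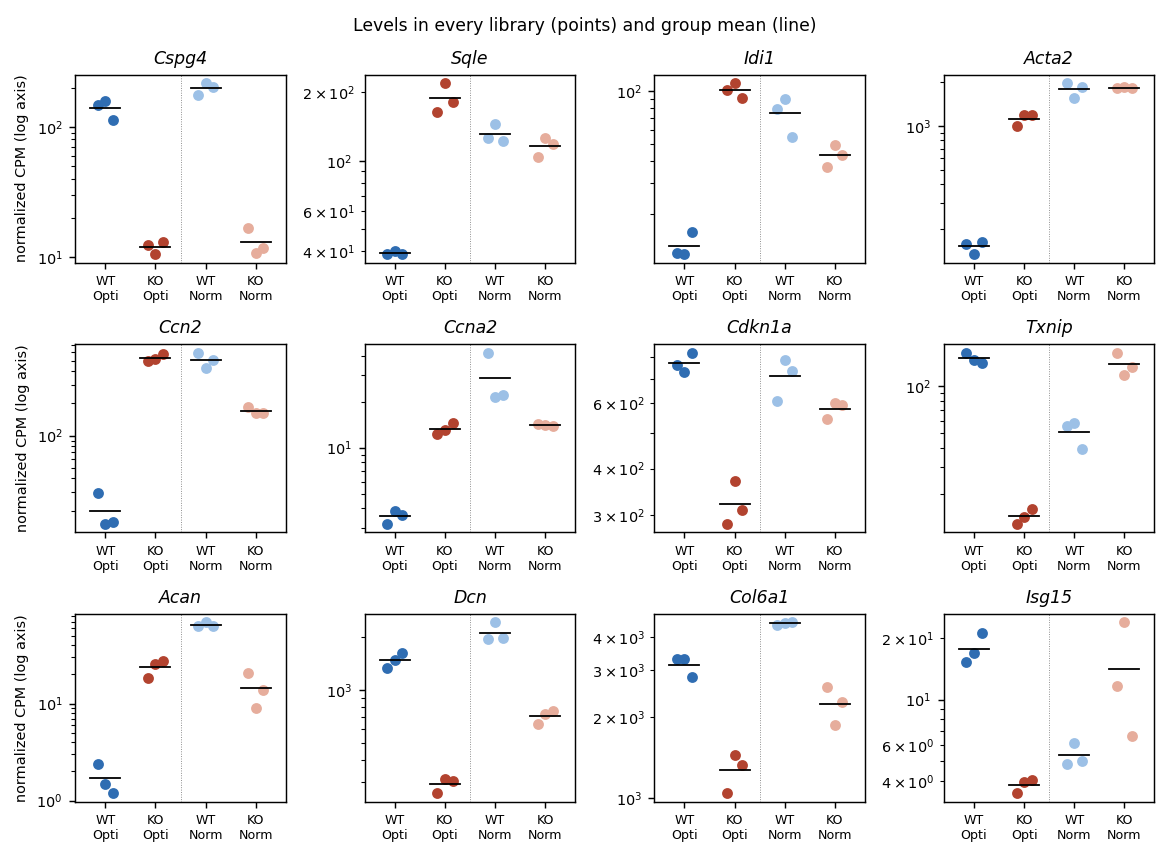
Normalized CPM on log axes for 12 genes in all 12 libraries, as points with the group mean as a line, titled Opti left of the dotted line and titled Norm right of it. Cspg4 is low in both knockout groups, while Sqle, Idi1, Acta2, Ccn2, Ccna2 and Acan are lowest in the wild type libraries titled Opti and Txnip, Dcn, Col6a1 and Cdkn1a are lowest in the knockout libraries titled Opti.

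Cholesterol genes rose together in the knockout. Of 30 tested genes for cholesterol synthesis and uptake, 24 were called higher and 5 lower, against 13.3% and 14.9% of all tested genes, and the median log2 fold change was 1.78 against 0.014 over all genes. Sqle (squalene epoxidase), which opens the sterol branch of the pathway, read 39.1, 40 and 38.9 CPM in wild type and 164, 219.7 and 182 CPM in knockout (2.26 ± 0.12, adjusted p = 9.9e-08). Idi1, the isopentenyl diphosphate isomerase, read 12, 11.9 and 15.9 and 101, 110.5 and 91.4 CPM (2.93 ± 0.19). The 2 groups did not overlap for either gene. Lss (lanosterol synthase) rose by 2.35 ± 0.11 and Hmgcs1 by 1.94 ± 0.12. The 5 that fell were not enzymes of cholesterol synthesis. Among them, Abca1 (-1.84 ± 0.25) and Abcg1 (-2.32 ± 0.35) export cholesterol, Mylip (-1.64 ± 0.14) is a ubiquitin ligase that lowers sterol uptake, and Lpin1 (-0.62 ± 0.12) is a phosphatidate phosphatase. Fatty acid genes moved less, with 12 of 26 higher, among them Fasn (1.47 ± 0.15) and Scd1 (1.62 ± 0.12), and 4 lower, among them the lipid droplet protein Plin2 (-1.08 ± 0.12) and Dgat2 (-1.22 ± 0.15). Under the other reading 22 of the 30 cholesterol genes were higher and 2 lower (median 1.15), with Sqle at 1.56 ± 0.12, and of the 26 fatty acid genes 12 were higher and 3 lower (median 0.35). Abca1, Abcg1 and Plin2 were not called there (adjusted p 0.087 to 0.48).

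Actin genes were higher in the knockout. Of 37 tested genes for actin, SRF targets and contraction, 29 were called higher and none lower, with 8 not called and a median of 1.32. Acta2, smooth muscle actin, read 158, 134 and 161 CPM in wild type and 1001, 1181 and 1179 CPM in knockout (2.89 ± 0.12, adjusted p = 3.9e-08). Srf read 21.5, 23.2 and 25 and 70.7, 71.6 and 74.9 CPM (1.64 ± 0.08). Wild type and knockout libraries were fully separated for both. The myosin light chain Myl9 rose by 2.34 ± 0.13, the LIM protein Fhl2 by 1.62 ± 0.08, Tagln (transgelin) by 1.95 ± 0.14 and the cytoplasmic actins Actb and Actg1 by 1.72 ± 0.13 and 1.78 ± 0.11. The YAP and TAZ genes themselves, Yap1 (0.04 ± 0.10) and Wwtr1 (0.04 ± 0.10), were not called. The other reading called 28 higher and none lower (median 1.22), with Acta2 at 3.59 ± 0.13. Of 38 immediate early genes, which serum switches on within the first hour, 14 were higher and 3 lower (median 0.15), led by Klf6 (1.26 ± 0.09), Ier5 (1.26 ± 0.09), Jun (1.33 ± 0.11) and Maff (1.71 ± 0.17), while Dusp4 went down (-1.34 ± 0.31). The other reading called 23 of the 38 higher and none lower (median 0.60), and Dusp4 was not called there (adjusted p = 0.083) or with the Y-linked covariate (0.12).

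Promoter windows of these lists are shown because their members moved together. RefSeq windows (GRCm38.p6) of 250 bases before to 50 after each gene start were matched by symbol and searched on both strands. A CArG box, the SRF binding motif, was present for 6 of the 30 actin genes with a window (20%), namely Actg1, Cnn2, Fhl1, Fhl2, Myl9 and Srf, and in 1.63% of all 32851 windows. A sterol element core, TCACNCCAC, was present for 1 of the 21 cholesterol genes with a window, Hmgcs1, and in 1.24% of all windows. The core of the interferon-stimulated response element, GAAA repeated after a gap of 2 bases, was present for 17 of the 35 interferon and MHC genes with a window (48.6%) and in 3.44% of all windows. Counted by gene, as in the lists, the 3 motifs were present for 1.63%, 1.41% and 3.73% of the 12667 tested genes with a window. These matches describe the sequence and show no binding. The 200 bases before the start are printed for 5 genes, 5′ to 3′ on the strand of the gene, with the motif in capitals. The window of Actg1 is chr11:120348496-120348695 (minus strand), of Myl9 chr2:156775264-156775463 (plus), of Hmgcs1 chr13:119690151-119690350 (plus), of Isg15 chr4:156200819-156201018 (minus) and of B2m chr2:122147487-122147686 (plus).
Actg1: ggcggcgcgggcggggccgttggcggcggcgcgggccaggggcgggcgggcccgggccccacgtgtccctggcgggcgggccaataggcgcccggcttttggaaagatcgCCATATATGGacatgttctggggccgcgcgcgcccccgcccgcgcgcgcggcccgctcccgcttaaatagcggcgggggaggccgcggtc
Myl9: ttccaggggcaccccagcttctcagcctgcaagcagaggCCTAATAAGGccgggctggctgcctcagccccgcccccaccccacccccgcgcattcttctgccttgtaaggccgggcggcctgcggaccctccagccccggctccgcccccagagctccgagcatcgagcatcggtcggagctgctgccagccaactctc
Hmgcs1: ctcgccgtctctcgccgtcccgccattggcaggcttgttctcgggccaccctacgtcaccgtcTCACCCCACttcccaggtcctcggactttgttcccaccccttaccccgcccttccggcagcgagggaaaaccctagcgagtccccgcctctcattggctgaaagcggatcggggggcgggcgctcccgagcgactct
Isg15: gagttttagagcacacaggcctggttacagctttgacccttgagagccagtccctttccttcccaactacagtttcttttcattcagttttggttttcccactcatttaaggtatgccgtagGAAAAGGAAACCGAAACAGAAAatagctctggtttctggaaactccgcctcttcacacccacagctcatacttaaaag
B2m: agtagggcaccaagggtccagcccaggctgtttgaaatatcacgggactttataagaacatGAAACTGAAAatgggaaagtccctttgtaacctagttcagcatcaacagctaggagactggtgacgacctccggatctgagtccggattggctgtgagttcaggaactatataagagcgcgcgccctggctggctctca

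The motif begins 90 bases before the start in Actg1, 161 in Myl9, 137 in Hmgcs1, 78 in Isg15 and 139 in B2m. In Isg15 it occurs 3 times in overlapping positions, which run together as 1 stretch of capitals.

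Proliferation genes were higher in the knockout. Of 54 cell cycle genes, 32 were called higher and 5 lower (median 0.71). Ccna2, cyclin A2 of S and G2 phase, read 3.18, 3.82 and 3.65 CPM in wild type and 12.3, 13 and 14.5 CPM in knockout (1.90 ± 0.22, adjusted p = 4.7e-05). The proliferation marker Mki67 read 2.98, 3.73 and 4.17 and 8.49, 11.8 and 11.4 CPM (1.54 ± 0.21). Neither gene overlapped between groups. The mitotic genes Ccnb1 (1.99 ± 0.24), Kif20a (1.15 ± 0.15) and Aurkb (1.89 ± 0.28) rose too, whereas the 5 that fell act in G1 and at replication origins: Cdk6 (-0.99 ± 0.14), Ccne1 (-0.45 ± 0.15), Cdt1 (-0.46 ± 0.16), Mcm7 (-0.72 ± 0.10) and E2f1 (-0.52 ± 0.13). Without single libraries the call of Cdt1 was lost in each of 6 cases (adjusted p 0.056 to 0.15), and that of Ccne1 without wild type replicates 2 and 3 and knockout replicates 1 and 3 (0.068 to 0.23), so that 3 were lower in each of those latter 4 fits. With the Y-linked covariate 2 were lower. Pcna, the replication clamp, was not called (0.22 ± 0.14, adjusted p = 0.25). Of 38 cell cycle inhibitors, p53 targets and quiescence genes, 20 were lower and 5 higher (median -0.41). Cdkn1a (p21) went from 763, 729 and 822 to 284, 370.0 and 310.1 CPM (-1.26 ± 0.12), and Cdkn1c (-1.93 ± 0.21), Cdkn2a (-1.58 ± 0.11), the p53 target Bbc3 (-1.71 ± 0.16) and Pik3ip1 (-1.38 ± 0.08) fell as well. Cited2 (1.75 ± 0.10) and Gadd45b (1.47 ± 0.11) went the other way. Under the other reading 36 cell cycle genes were higher and 1 lower (median 0.94), with Ccna2 at 1.99 ± 0.22, and the inhibitors had 14 lower and 5 higher (median -0.21). Of the 5 genes above, Ccne1 was then called higher (0.76 ± 0.15) and Cdk6, Cdt1 and E2f1 were not called.

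Among NG2's partners, the collagen VI chains that it binds were lower. Col6a1 read 3298, 3317 and 2821 CPM in wild type and 1044, 1447 and 1329 CPM in knockout (-1.30 ± 0.15, adjusted p = 3.2e-05). Col6a2 read 2873, 2916 and 2625 and 862, 1218 and 1138 CPM (-1.39 ± 0.14). Col6a3, the longest chain, overlapped between the groups and was not called (-0.56 ± 0.24, adjusted p = 0.093). Of 29 tested genes for NG2, its ligands and proteins the study assayed, 12 were lower and 3 higher (median -0.29): the PDGF receptors split, with Pdgfra at -0.61 ± 0.16 and Pdgfrb at 0.72 ± 0.14, the kinase gene Prkca rose by 0.51 ± 0.12, Plat, the tissue plasminogen activator, went from 74.6, 77.8 and 70.6 to 17.4, 18.5 and 22.6 CPM (-1.93 ± 0.11), and Lgals3 (galectin-3) was lower (-0.88 ± 0.16). Itgb1 (0.03 ± 0.14), Fgf2 (0.21 ± 0.13) and Pdgfa (-0.31 ± 0.17) were not called. Under the other reading Itgb1 was called higher (0.56 ± 0.14, adjusted p = 0.01), and 6 of the 29 were higher and 5 lower (median 0.0044). Without knockout replicate 1 the number lower was 6, and without wild type replicate 1 it was 7. The call of Pdgfra was lost without wild type replicate 1 (adjusted p = 0.060) or knockout replicate 1 (0.062). The collagen VI result depends on the reading: against the same wild type libraries, the knockout libraries titled Norm gave -0.48 ± 0.14 for Col6a1 (adjusted p = 0.028) and -0.33 ± 0.13 for Col6a2 (adjusted p = 0.091).

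Collagen genes were more often lower than higher by title. Of 29 genes for fibrillar collagens and their enzymes, 13 were lower and 5 higher (median -0.39), and of 21 for collagen VI and basement membrane, 9 were lower and none higher (median -0.45). The 9 became 5 without wild type replicate 1 or with the Y-linked covariate. Col1a1, the main chain of type I collagen, read 57797, 62778 and 54518 CPM in wild type and 17910.0, 26616 and 24405 CPM in knockout (-1.34 ± 0.16, adjusted p = 5.0e-05) without overlap. Col5a3 (-1.99 ± 0.10), Pcolce (-1.15 ± 0.12), which enhances the trimming of procollagen, and Col18a1 (-1.93 ± 0.15) fell. The crosslinking enzymes Lox (1.49 ± 0.15) and Loxl3 (1.11 ± 0.12) rose. Dcn, decorin, the small proteoglycan that binds collagen fibrils, read 1336, 1476 and 1616 and 261, 314 and 305 CPM (-2.33 ± 0.13). Its relatives Lum (-2.37 ± 0.16) and Kera (-4.04 ± 0.67) also fell, and Podn rose (0.71 ± 0.11), in a list of 14 small leucine-rich proteoglycans with 5 lower and 3 higher (median -0.32). With the other reading the medians of both collagen lists were above 0 (0.25 and 0.16), with 10 higher and 5 lower for the fibrillar list and 4 higher and 5 lower for the basement membrane list, while Col5a3 was not called. The proteoglycan list had 9 lower and 1 higher there (median -0.81), with Dcn at -1.05 ± 0.12 and Podn called lower (-0.49 ± 0.11).

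Other matrix genes split in direction. Of 41 glycoprotein and elastic fibre genes 13 rose and 13 fell. The hyaluronan synthase Has2 read 11.4, 9.34 and 8.98 CPM in wild type and 37.6, 42.2 and 43.6 CPM in knockout (2.06 ± 0.15), and the thrombospondins Thbs4 (2.13 ± 0.13) and Thbs1 (1.52 ± 0.21) and the TGF-beta binding protein Ltbp1 (1.53 ± 0.15) rose. The fibulin Fbln1 (-2.42 ± 0.18) and the microfibril proteins Mfap2 (-1.81 ± 0.18) and Mfap4 (-2.16 ± 0.29) fell. Of 29 cartilage genes 10 rose and 7 fell: beside Acan, the lubricin gene Prg4 went from 5.57, 6.91 and 4.56 to 21.1, 25.6 and 28.6 CPM (2.14 ± 0.18), and Col2a1 (1.31 ± 0.14), Sox9 (0.84 ± 0.12), Hapln1 (1.56 ± 0.17) and Cilp (1.71 ± 0.17) rose, whereas Gdf10 (-1.72 ± 0.14), Matn4 (-0.93 ± 0.12) and the hypertrophic collagen Col10a1 (-2.0, SE 0.45) fell. Of 23 bone genes 6 rose and 5 fell, with the RANKL gene Tnfsf11 at 3.44 ± 0.24 on less than 1 CPM in each wild type library, and the mineralization genes Alpl (-1.90 ± 0.19) and Ibsp (-1.82 ± 0.43) on the lower side. Of 17 tendon and fibrous tissue genes 8 fell, among them Mkx (-1.24 ± 0.15) and Tnc (-1.13 ± 0.20), and 2 rose. Without 1 library the lower bone genes numbered 2 or 3 rather than 5, for each of the 6 libraries. The other reading gave 17 higher and 10 lower for the glycoprotein list (median 0.14), 6 and 7 for cartilage (0.0095), 10 and 4 for bone (-0.062) and 5 and 5 for tendon (-0.14). Tnc and Col10a1 were not called in it.

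Proteases were divided and adhesion genes leaned upward. Of 45 matrix proteases and inhibitors 17 fell and 9 rose, and under the other reading the balance was the opposite, with 9 lower and 15 higher (median 0.061). The urokinase receptor Plaur read 10.6, 10.2 and 9.2 CPM in wild type and 30.5, 29.4 and 35.3 CPM in knockout (1.66 ± 0.11). The aggrecanases Adamts1 (1.80 ± 0.21) and Adamts5 (1.79 ± 0.22) and the inhibitor Timp3 (1.45 ± 0.19) rose. Mmp15 (-2.27 ± 0.19), Mmp3 (-2.17 ± 0.38), Mmp13 (-1.10 ± 0.27), Serpine2 (-1.38 ± 0.12) and Fap (-1.21 ± 0.15) fell. Of 41 integrin and focal adhesion genes 18 rose and 7 fell (median 0.41). Vcl (vinculin) read 77.6, 65.6 and 53.3 and 246, 322 and 327 CPM (2.19 ± 0.24), and Flna (1.55 ± 0.18), Actn1 (1.19 ± 0.12), Ilk (0.93 ± 0.09) and the syndecan Sdc4 (1.04 ± 0.09) rose with it, which are proteins on the inner side of the adhesion or its coreceptor. Of the integrins themselves Itga4 was the lowest (-1.52 ± 0.18), and Itga1 (0.94 ± 0.17) and Itga11 (0.75 ± 0.15) rose. The other reading called 23 of the 41 higher and 3 lower (median 0.59), Itga1 not among them (adjusted p = 0.096).

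Genes of motility and guidance, the process the study followed under serum starvation, were divided. Of 72 tested, 17 were higher and 15 lower, 40 were not called and the median was 0.07. The chemokine scavenger Ackr3 rose by 2.16 ± 0.17, Sema3a by 1.14 ± 0.13, the Cdc42 effector Cdc42ep3 by 0.98 ± 0.11, the S100 protein S100a4 by 1.96 ± 0.28 and Rnd3 by 0.74 ± 0.10. Sema3b (-1.96 ± 0.11), the plexin Plxnc1 (-1.95 ± 0.18), the Slit receptor Robo2 (-1.83 ± 0.19) and Nrp1 (-0.76 ± 0.20) fell. The call of Nrp1 was lost without wild type replicates 1 or 2 or knockout replicate 1 (adjusted p 0.059 to 0.066). Rac2, a GTPase of blood cells, fell by 2.17 on the log2 scale (SE 0.25) along with the myeloid markers, whose part in it was not tested. The GTPases found in most cells, Rac1 (-0.08 ± 0.11), Rhoa (0.07 ± 0.11) and Cdc42 (-0.09 ± 0.09), were not called. The other reading gave 25 higher and 9 lower (median 0.13). In it Rhoa (0.58 ± 0.11, adjusted p = 0.0017), Rac1 (0.34 ± 0.11) and Cdc42 (0.35 ± 0.09) were called higher and Rac2 was not called (0.02 ± 0.29).

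Among signaling genes the TGF-beta and BMP list leaned upward. Of 50 tested, 23 were higher and 9 lower (median 0.37), with 15 higher when the Y-linked covariate was fitted. Id3, a target of BMP receptors, read 6.09, 4.92 and 3.05 CPM in wild type and 59, 49.3 and 56.8 CPM in knockout. Id1 (1.73 ± 0.15), the feedback inhibitors Smad7 (1.59 ± 0.10) and Skil (1.72 ± 0.15), the receptor Bmpr1b (2.64 ± 0.26), the ligand Bmp4 (1.71 ± 0.22) and the antagonist Grem1 (1.67 ± 0.17) rose, and the ligands Tgfb2 (-1.43 ± 0.12) and Gdf6 (-1.38 ± 0.16) fell. Of 54 genes for PDGF, FGF, IGF, EGF and VEGF signaling 14 rose and 15 fell: Hbegf (1.56 ± 0.11), Nrg1 (2.12 ± 0.19) and Fgf10 (2.24 ± 0.28) were higher, Fgf13 (-2.32 ± 0.15), Vegfd (-1.84 ± 0.12), Egfr (-1.14 ± 0.15) and Igfbp5 (-1.84 ± 0.19) lower. Of 47 Wnt genes 14 fell, among them the antagonists Sfrp2 (-2.57 ± 0.17) and Wif1 (-2.42 ± 0.35), and 8 rose, among them the receptors Lgr6 and Lgr4 (1.48 ± 0.13). Without knockout replicate 1, 8 Wnt genes were lower, and with the Y-linked covariate 9 were lower and 4 higher. Of 37 Hedgehog, Notch and retinoic acid genes 11 fell and 4 rose. Gli1, the Hedgehog target, read 2.91, 6.68 and 5.85 and 0.299, 0.482 and 0.154 CPM (-4.04 ± 0.50), with Ptch1 at -0.95 ± 0.19, Notch3 at -2.17 ± 0.21 and the retinoic acid synthase Aldh1a2 at -4.23 ± 0.49, while Cyp26b1, which degrades retinoic acid, rose (2.08 ± 0.19). Of 43 G protein signaling genes 14 rose and 10 fell, with the natriuretic peptide receptor Npr3 (2.57 ± 0.19), the bradykinin receptor Bdkrb1 (3.29 ± 0.41) and endothelin Edn1 (3.46 ± 0.61) up, and the endothelin receptor Ednra (-1.79 ± 0.15) and angiotensin receptor Agtr1a (-2.50 ± 0.36) down. Of 44 jaw patterning factors 7 rose and 7 fell, with 30 not called. The share called, 31.8%, was near the 28.2% of all tested genes, so the list did not stand out. Dlx5 (1.35 ± 0.19) and Dlx6 (1.25 ± 0.29) rose while Lhx6 (-1.30 ± 0.27) and Twist1 (-1.14 ± 0.19) fell. Without wild type replicate 2, 4 of the jaw factors were lower, and with the Y-linked covariate 3 were higher, Dlx6 not among them.

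The other reading gave 22 higher and 6 lower for the TGF-beta and BMP list (median 0.32). It gave 13 higher and 9 lower for the growth factor list (-0.041), 8 and 9 for Wnt (-0.014) and 3 and 13 for Hedgehog, Notch and retinoic acid (-0.54). For G protein signaling it gave 12 and 4 (0.28), and for jaw patterning 9 and 4 (0.013). Most members of the Hedgehog, Notch and retinoic acid list were thus not called under either reading, and the called ones were mostly lower under both. Tgfb2 (-0.04 ± 0.12) and Twist1 (-0.14 ± 0.18) were not called under the other one.

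Interferon response and MHC class I genes were lower. Of 47 tested, 35 were called lower and none higher, with a median of -1.09. The ubiquitin-like protein Isg15 read 15.3, 16.9 and 21.2 CPM in wild type and 3.48, 3.95 and 4.04 CPM in knockout (-2.22 ± 0.35, adjusted p = 4.8e-04), and the MHC heavy chain gene H2-K1 read 501, 510.2 and 556 and 177, 234 and 201 CPM (-1.36 ± 0.11). The groups were apart for both. The peptide transporter Tap1 (-1.80 ± 0.11), the MHC gene H2-D1 (-1.23 ± 0.11), the immunoproteasome subunit Psmb8 (-1.58 ± 0.16) and B2m (-1.07 ± 0.15) fell, and Irf1 was not called (-0.04 ± 0.10). H2-K1 and H2-D1 are closely related genes that can share reads, so their separate values are uncertain. The myeloid markers were lower in the same libraries: Lyz2, lysozyme of macrophages, read 860.2, 499 and 611 CPM in wild type and 182, 146 and 162 CPM in knockout (-2.01 ± 0.18), and the complement gene C1qc read 56.8, 32.2 and 38.3 and 8.07, 7.6 and 6.91 CPM (-2.49 ± 0.19). Their part in the interferon result was not tested. Under the other reading 12 of the 47 interferon genes were lower and none higher (median -0.38), with H2-K1 at -1.18 ± 0.11 and Isg15 no longer called (-0.34 ± 0.33, adjusted p = 0.53), and 5 of the 18 myeloid markers were lower (median -0.40).

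Lysosome genes were lower, whereas complement and inflammation genes split. Of 45 chemokine, complement and inflammation genes 14 fell and 10 rose (median -0.06). Serping1, the C1 inhibitor, fell by 2.79 on the log2 scale (SE 0.22), and C2 (-2.09 ± 0.13) and the adhesion receptor Icam1 (-1.95 ± 0.20) fell, while the cytokine Lif (2.55 ± 0.19) and the prostaglandin synthase Ptgs2 (1.26 ± 0.14) rose. Of 36 lysosome and nutrient sensing genes 21 fell and 1, Deptor, rose (1.25 ± 0.18), with a median of -0.47. Gpnmb (-1.31 ± 0.11), the hexosaminidase gene Hexa (-1.19 ± 0.10) and the cathepsins Ctsz (-1.27 ± 0.10) and Ctsb (-0.90 ± 0.10) fell. Of 43 oxidative stress and iron genes 15 fell and 5 rose, with heme oxygenase Hmox1 (-1.53 ± 0.12), Gsta4 (-1.83 ± 0.14) and Gstm1 (-1.32 ± 0.11) down and Nqo1 (1.10 ± 0.13) up. Of 43 genes for amino acid shortage and ER stress 13 fell and 3 rose (median -0.16): Ddit4 (-0.88 ± 0.10), Ddit3 (-0.74 ± 0.15) and the chaperone Hspa5 (-0.65 ± 0.13) fell, and the transporter Slc38a2 rose (0.78 ± 0.10). Of 34 glycolysis and hypoxia genes 9 rose and 5 fell, with the glucose transporter Slc2a1 at 0.88 ± 0.10 and Ndrg1 at -0.72 ± 0.12. Of 34 genes for tRNA synthetases and ribosome biogenesis 9 rose and 1 fell, with the nucleolar protein Nop56 at 1.03 ± 0.11 and Wars at -0.31 ± 0.10. The share called in that list, 29.4%, was near the 28.2% of all tested genes. The call of Wars was lost without wild type replicates 2 or 3 or knockout replicates 1 or 3 (adjusted p 0.092 to 0.12). Of the glycolysis genes 3 rather than 5 were lower without wild type replicates 2 or 3 or knockout replicate 3.

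Under the other reading the tRNA synthetase and ribosome biogenesis list had 28 of 34 higher and none lower (median 0.51), with Wars called higher (0.42 ± 0.10). The amino acid shortage and ER stress list turned, with 11 higher and 6 lower (median 0.13), and Hspa5 was not called. Glycolysis had 16 higher and 2 lower (0.28), and the chemokine and complement list 8 and 7 (0.13). Lysosome genes had 13 lower and 3 higher (-0.18), with Ctsb not called, and oxidative stress genes 14 lower and 10 higher (-0.16).

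**Figure D4:**
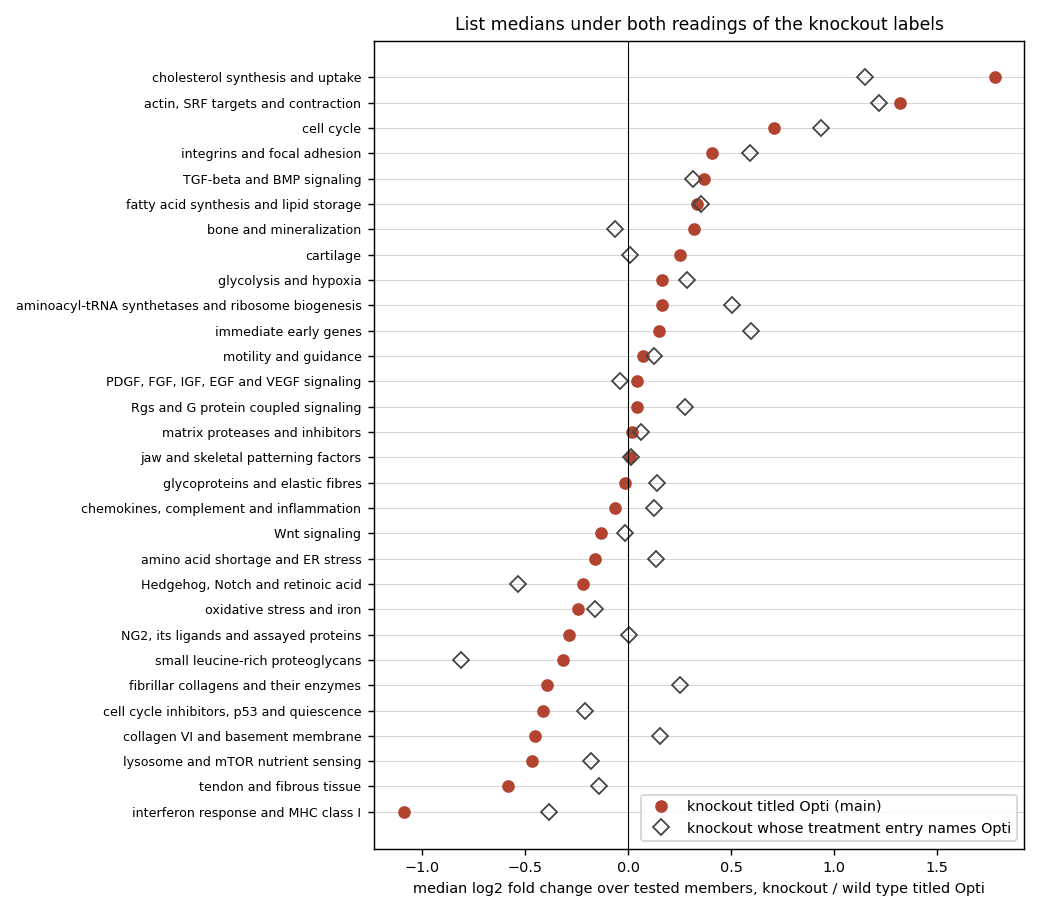
Median log2 fold change of each of the 30 lists for the knockout libraries titled Opti (filled circles) and for the knockout libraries whose treatment entry names Optimem (open diamonds), both against the same 3 wild type libraries titled Opti, which the 2 sets of values share. Cholesterol, actin and cell cycle lists have medians of 1.78, 1.32 and 0.71 for the first and 1.15, 1.22 and 0.94 for the second, and the fibrillar collagen list lies at -0.39 and 0.25.

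The knockout difference was then compared with that in the libraries titled Norm, which share no library with it. There 6896 genes were called (36.1%), and the difference of the 2 knockout effects was called for 6007 genes (31.4%), including 3122 of the 5395. Genes called in both comparisons went the same way in 1467 cases and opposite ways in 1162. For actin, cholesterol and cell cycle genes the difference between media was called for 27 of 37, 27 of 30 and 50 of 54. Acta2, for example, read 1956, 1557 and 1853 CPM in wild type and 1824, 1833 and 1801 CPM in knockout titled Norm (0.02 ± 0.11), and its difference between media was 2.87 ± 0.17 (adjusted p = 2.2e-07). The wild type level of that gene was thus low in 1 of the 2 media, and the 3 other groups were high. Sqle gave -0.17 ± 0.11 titled Norm and a difference of 2.44 ± 0.16, and Ccna2 gave -1.01 ± 0.21 and 2.91 ± 0.31. For lysosome genes the difference was called for 30 of 36, and for interferon and MHC genes for 33 of 47. In wild type, Opti against Norm had 29 lysosome genes called higher and 2 lower, and 3 and 47 cell cycle genes. For tRNA synthetases and ribosome biogenesis it had 13 and 9. The share of all tested genes called between media in wild type was not calculated, so these wild type counts cannot be set against it. Knockout against wild type titled Norm had 27 and 2, 1 and 41, and 25 and 0 for these 3 lists, beside 18.9% higher and 17.2% lower of all tested genes. Titled Opti it had 1 and 21, 32 and 5, and 9 and 1. Which knockout libraries lacked serum was not tested with these values. If the treatment entries are right instead of the titles, the comparison of the 2 knockout effects no longer holds medium constant within either of them. The 2 knockout groups also differed in sex-linked genes. Xist read 449.5, 216.9 and 362.3 CPM in knockout titled Opti and 58.7, 33.3 and 49.7 CPM titled Norm. Ddx3y read 25.7, 29.1 and 29.2 and 56.8, 52.3 and 48.4 CPM. In wild type Xist read 306.5, 270.4 and 166.2 CPM titled Opti and 200.2, 210.3 and 154.4 CPM titled Norm. The part of sex in the differences between titles or readings was not tested.

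Some genes differed in the same direction whichever title was used, with no called difference between the media. Lum read 3389, 4470.2 and 3411 CPM in wild type and 476, 626 and 597 CPM in knockout titled Norm (-2.73 ± 0.16), beside -2.37 ± 0.16 titled Opti. The size of the Lum difference rested on the title: the other reading gave -0.53 ± 0.15 (adjusted p = 0.022). Col15a1 (-2.55 ± 0.21), Sfrp2 (-2.23 ± 0.17), Gli1 (-3.35 ± 0.50), Aldh1a2 (-2.87 ± 0.46) and Igfbp5 (-1.78 ± 0.18) were lower titled Norm too, and Thbs4 (2.14 ± 0.13), Prg4 (2.06 ± 0.18), Grem1 (2.19 ± 0.17) and Fgf10 (2.41 ± 0.29) higher. For none of these 10 genes was the difference between media called, which does not show the effects to be equal: Aldh1a2, at -4.23 ± 0.49 titled Opti, gave a difference of -1.36 ± 0.64. Cpz and Dpt were lower in both but by more in the libraries titled Opti (difference -2.07 ± 0.34 and -2.08 ± 0.44). All 6 knockout libraries lay above all 6 wild type libraries for 664 tested genes (3.47%) and below them for 858 (4.49%). Because those counts use all libraries of each genotype, they do not depend on which medium a knockout library had. Wdfy1, a gene known to differ between C57BL/6 substrains, was in the first set, with 21.5, 21.9 and 17.2 CPM in wild type and 102, 99.6 and 99.2 CPM in knockout (2.31 ± 0.12). Of 4 tested genes on a list of substrain differences it was the 1 called titled Opti, and 3 were not. Without knockout replicate 2, 2 were called higher. Titled Norm 2 of the 4 were called higher and 2 lower, and under the other reading 2 were higher and none lower. Among the 3 not called, Nnt read 16.05, 18.49 and 12.26 CPM in wild type and 28.25, 8.644 and 32.42 CPM in knockout titled Opti. Titled Norm it read 17, 15.8 and 14.5 CPM in wild type and 41.61, 72.78 and 65.26 CPM in knockout. Entpd4, another gene known to differ between substrains, was in the second set, with 57.6, 59.1 and 53.8 CPM in wild type and 37.8, 31.4 and 31.6 CPM in knockout (-0.76 ± 0.10), as were its neighbours Gm27177 and Gm16867. The deletion and a difference of strain background between the 2 mouse lines cannot be told apart for such genes.

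**Figure D5:**
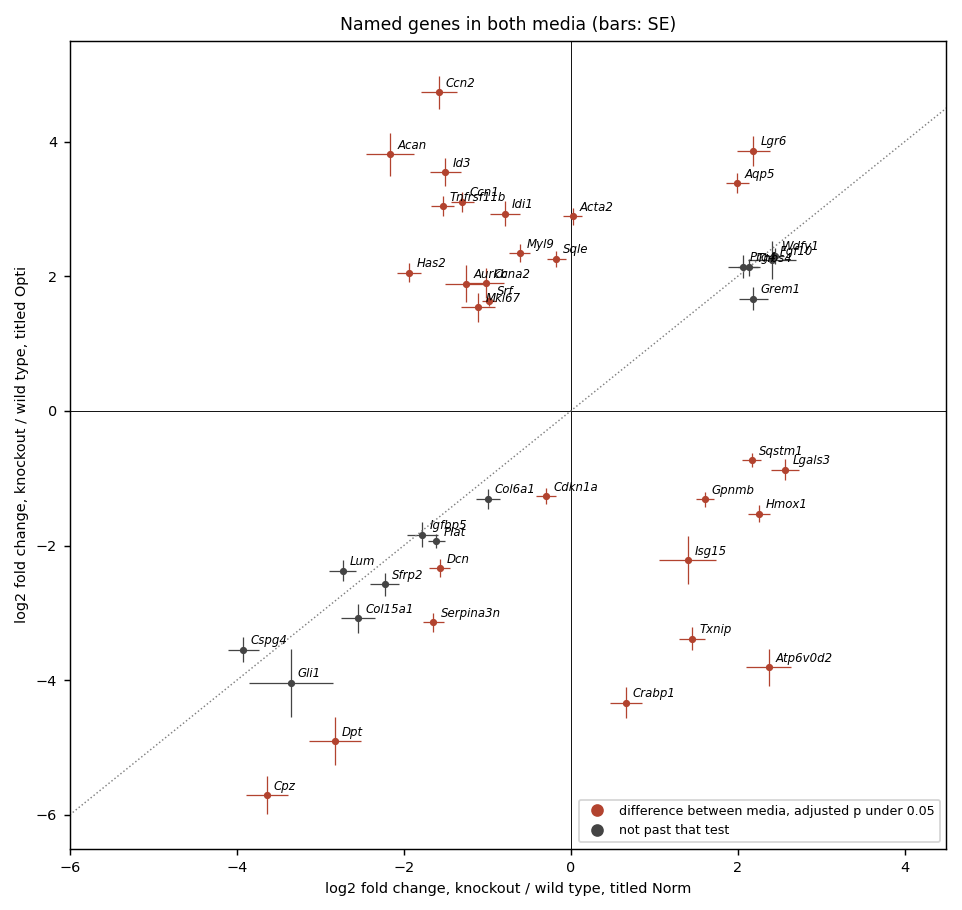
Log2 fold change of knockout over wild type for 42 named genes in the libraries titled Norm (x axis) and titled Opti (y axis), with bars of 1 SE and a dotted line where both are equal. Red points differ between the media by the interaction test, such as Acta2 and Ccn2 above and Txnip below, and dark points, such as Cspg4, Col15a1 and Thbs4, are not past that test and lie along the line.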

How the data were processed

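RNA was extracted with RNeasy, made into stranded poly(A) libraries and sequenced on an Illumina NovaSeq. The authors aligned reads with HISAT2 and deposited StringTie gene counts, not normalized, and FPKM values for the same libraries, with versions, genome build and strand setting of the counting not given in the sources used here. Gene coordinates overlapped GENCODE M21 (GRCm38) for 19096 of the 19118 tested genes. Counts of all 12 libraries were fitted with edgeR 4.0.16 in R 4.3.3 (filterByExpr, TMM, 4 group means, glmQLFit, glmQLFTest), with the medium of knockout libraries read from the title. limma 3.58.1 on log2(FPKM + 0.1) and log2(FPKM + 1) and DESeq2 1.42.0 were alternatives. Replicates of a group were compared by chi-square and none agreed within sampling noise. On simulated counts of the 19118 genes, 65 of 66 genes changed 4-fold, 49 of 67 changed 2-fold and 17 of 67 changed 1.5-fold were recovered, with 11 false calls. Only 200 genes were changed there, whereas 5395 were called in the data. The adjusted threshold was therefore stricter in the simulation, and its recovery rates need not hold for the real comparison. Named genes were Cspg4, the 15 largest increases and 15 largest decreases among called genes averaging 5 CPM or more whose groups did not overlap, and, from every list, the 4 members ranked first by adjusted p, with others to show an opposite direction or a value not called. Some genes that the rule names are not reported here. Some genes named beside these were chosen after their values were seen. Members and lists were chosen with earlier results of these data known. Where several IDs shared a symbol, the symbol stands for the one with the most counts.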

Additional observations from a re-analysis of the deposited data

Results flagged for a closer look

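The knockout difference titled Opti differed from that titled Norm for 6007 of the 19118 tested genes by the interaction test (edgeR quasi-likelihood test, adjusted p under 0.05). Of the 217 named genes, 157 were past that test, and 59 of them were called in both titles in opposite directions. The values here are log2 differences, the knockout effect titled Opti minus that titled Norm. The 59 were chosen after their values were seen. Among matricellular, cartilage and other matrix genes the differences were Ccn2 6.31, Acan 5.98, Gm17501 4.64, Ccn1 4.41, Has2 3.99, Hapln1 2.93, Cilp 2.76, Thbs1 2.46, Loxl3 1.81 and Podn 1.19. For actin and adhesion genes they were Vcl 3.32, Myl9 2.96, Srf 2.61, Actb 2.27, Itga1 2.15, Actg1 2.12, Sdc4 1.85, Cnn2 1.77, Rnd3 1.60 and Itga11 1.24. Cell cycle genes gave Aurkb 3.14, Ccna2 2.91, Mki67 2.65 and Ccnb1 2.61. Lipid synthesis genes gave Idi1 3.72, Hmgcs1 2.77 and Fasn 1.91. Signaling, bone and inflammation genes on the same side were Cyp26b1 5.90, Id3 5.05, Tnfsf11 4.66, Tnfrsf11b 4.58, Bdkrb1 4.28, Dio3 4.10, Id1 3.65, Npr3 3.56, S100a4 2.81, Deptor 2.63, Plaur 2.47 and Ptgs2 1.76. On the other side, higher titled Norm and lower titled Opti, stress and growth arrest genes gave Txnip -4.84, Ddit3 -3.82, Hmox1 -3.78, Gsta4 -2.50, Bbc3 -2.47, Ndrg1 -2.41, Wars -2.15, Pik3ip1 -2.13, Ddit4 -1.78 and Hspa5 -1.57. Lysosome and lipid storage genes gave Atp6v0d2 -6.18, Gpnmb -2.92, Dgat2 -2.23, Plin2 -2.09, Ctsb -1.28 and Lpin1 -1.23. The remaining ones were Crabp1 -4.99, Isg15 -3.62, Lgals3 -3.44 and Plxnc1 -2.47. If the treatment entries of the knockout libraries are right, each of these differences mixes genotype and medium.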

How the results depend on the processing

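The direction and call of most of the named genes held under each alternative, with 182 of 217 holding both under the other reading of the labels. Most named genes were picked for a small adjusted p or a large change in this same fit, which favours their holding. Of all 5395 called genes, 2610 were called with the same sign under the other reading, and 3078 with the Y-linked covariate. Calls numbered 5395, and 4031 to 5091 without 1 library. DESeq2 called 6335, the replicate block 5203 and the Y-linked covariate 3900, and leaving out mitochondrial genes, chosen after seeing the data, gave 5373. Libraries with the same replicate number did not deviate together (correlations -0.0043, -0.0070 and -0.038), so the numbers pair nothing. Higher genes made up 41.1% of calls with upper quartile normalization and 57.2% with limma on log2(FPKM + 0.1). With limma on log2(FPKM + 1), 482 genes were at least 2-fold higher and 246 lower, and 660 were 2-fold higher under the other reading of the labels. That reading turned the sign of 15 named genes: Wars 0.42, Ccne1 0.76, Lgals3 0.36, Col10a1 0.41, Tnc 0.0053, Rac2 0.015, Podn -0.49 and Palmd -0.047 were called by title, and Cdc42 0.35, Rac1 0.34, Col6a3 0.39, Prrx1 0.13, Pdgfa 0.28, Fgf2 -0.14 and Xist -2.39 were not. Under it Wars, Ccne1, Podn, Cdc42, Rac1 and Xist were past the threshold, as were Itgb1 0.56 and Rhoa 0.58. The cause was not tested. The other sign changes were of genes near 0 that were not called: Irf1 0.048 and 0.043 and Rac1 0.0018 and 0.0018 with limma on FPKM at pseudocounts of 0.1 and 1, Itgb1 -0.017, Wwtr1 -0.0055 and Yap1 -0.0098 with upper quartile normalization, and Itgb1 -0.13, Wwtr1 -0.12, Yap1 -0.13 and Pdgfa 0.040 with the Y-linked covariate. Without 1 library Irf1 ranged from -0.091 to 0.032, Itgb1 from -0.081 to 0.17, Rac1 from -0.15 to 0.0077 and Wwtr1 from -0.0096 to 0.11. The 5 higher genes became 3 in the fibrillar collagen list without knockout replicate 3, in the cell cycle inhibitor list without wild type replicate 2, and in the oxidative stress list without wild type replicate 1 or knockout replicate 3. Col6a3 was called in the 6 libraries alone (-0.57, adjusted p = 0.045) and with DESeq2 (-0.55, adjusted p = 0.043). With 3 libraries a group, simulated 1.5-fold changes were mostly missed when only 200 genes were changed.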
